A study of Homo sapiens with 4 samples.

Results

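ATF4 and 9 genes that act with it or are switched on by it were followed in 2 human multiple myeloma lines exposed to the compound OSSL_325096, for which only a code name is given. The 10 genes were those whose name in the authors' deposited table equalled ATF4, ATF3, ATF5, DDIT3, CEBPB, CEBPG, TRIB3, CHAC1, DDIT4 or SESN2, and all 10 were found among its 57773 genes. KMS12PE and KMS11 are established lines derived from malignant antibody-secreting plasma cells. Each was exposed to 1 µM OSSL_325096 or to the solvent DMSO in RPMI medium with serum, and RNA was sequenced from 1 library per line and treatment, 4 libraries in all. The labels do not say how long the cells were exposed. The file holds the comparison of compound with solvent that the authors made across the lines, so that the lines were the only replicates of a treatment and a response in 1 line could not be told from a response in both. No values of single libraries were analysed here, and how deeply each was sequenced is unknown.

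The integrated stress response is a shared answer of cells to shortage of amino acids, misfolded protein in the endoplasmic reticulum, lack of haem and viral RNA. Kinases that sense these states phosphorylate the initiation factor eIF2 alpha, which slows most protein synthesis while the mRNA of the transcription factor ATF4 is translated more. ATF4 pairs with other proteins of the bZIP class, which bind DNA through a basic region and a leucine zipper, and the pairs bind C/EBP-ATF response elements (CARE) beside genes of amino acid supply, redox balance and cell death. Plasma cells make large amounts of antibody and are known to lean on this response and on the unfolded protein response.

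Sequence beside the start sites is shown first, because CARE is the element through which ATF4 is known to act on several of these genes. RefSeq promoter windows on build GRCh38.p14, from 250 bases before to 50 bases after each start, were found for 10 of the 10 genes (19 windows, as 7 of the 10 genes were given with more than 1 start). The CARE core, spelled TGATGNAA with N any base, was searched on both strands. It occurred in 3 of the 19 windows, against 3.62% of all 35116 windows. By gene, 3 of the 10 had it, against 2.52% of the genes that had a window and at least 1 RPKM. The 30 bases around each match are given 5′ to 3′ in the gene's direction with the match in capitals.
CHAC1 (match at chr15:40953262-40953269): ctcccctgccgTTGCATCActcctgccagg
CEBPG (match at chr19:33374071-33374078): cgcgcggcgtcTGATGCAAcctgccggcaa
ATF3 (match at chr1:212565216-212565223): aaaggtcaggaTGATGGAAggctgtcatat
In CHAC1 the core lies on the opposite strand, so that its reverse complement is read, and its first base in the gene's direction is 209 bases upstream of the start. In CEBPG it begins 42 bases upstream of the second listed start, and in ATF3 191 bases upstream of the first. A match describes letters and no binding was measured.

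The other 7 genes had no CARE core in these windows, which says nothing of elements farther away. The CCAAT box, the letters bound by NF-Y, was present in 9 of the 19 windows, against 34.6% of all windows. By gene, 7 of the 10 had it, against 44% of the genes that had a window and at least 1 RPKM. DDIT3, DDIT4 and SESN2 had a pair of such boxes upstream of the start, and CEBPB had none before its first start. The 250 bases upstream of the start are shown for these 4 genes as examples with and without the box, with CCAAT or its reverse complement in capitals.
DDIT3 (chr12:57520515-57520764, minus strand): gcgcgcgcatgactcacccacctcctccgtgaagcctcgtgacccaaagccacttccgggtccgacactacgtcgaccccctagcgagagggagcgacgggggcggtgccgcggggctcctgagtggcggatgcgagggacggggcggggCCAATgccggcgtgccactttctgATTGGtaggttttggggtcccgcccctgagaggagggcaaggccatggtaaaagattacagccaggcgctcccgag
DDIT4 (chr10:72273674-72273923, plus strand): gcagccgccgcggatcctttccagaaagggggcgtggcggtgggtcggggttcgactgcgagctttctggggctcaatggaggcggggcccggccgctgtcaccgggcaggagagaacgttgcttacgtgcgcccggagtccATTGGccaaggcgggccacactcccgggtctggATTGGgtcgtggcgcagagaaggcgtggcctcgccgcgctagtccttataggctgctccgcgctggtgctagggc
SESN2 (chr1:28259268-28259517, plus strand): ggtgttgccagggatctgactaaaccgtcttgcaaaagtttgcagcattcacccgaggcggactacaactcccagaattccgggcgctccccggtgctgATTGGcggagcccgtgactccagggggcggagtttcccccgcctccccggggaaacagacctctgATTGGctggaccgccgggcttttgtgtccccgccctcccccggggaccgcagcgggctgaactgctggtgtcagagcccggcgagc
CEBPB (chr20:50190333-50190582, plus strand): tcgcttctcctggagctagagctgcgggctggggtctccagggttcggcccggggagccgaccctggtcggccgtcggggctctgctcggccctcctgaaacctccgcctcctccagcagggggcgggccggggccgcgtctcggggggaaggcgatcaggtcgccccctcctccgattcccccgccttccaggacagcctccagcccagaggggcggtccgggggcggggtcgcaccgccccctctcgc
Among the other genes, CHAC1 had 3 boxes, CEBPG had a pair in its first window and ATF3 had 1 in its first window. ATF4, ATF5 and TRIB3 had none. The 1 box of CEBPB lay just after its first start and also in the window of its second start. Windows of the same gene can overlap, so the boxes of CEBPB and of DDIT3 were counted in both of their windows. Over the genes that had a window and at least 1 RPKM, the median log2 fold change was 0.01 both with and without the box, with 48.9% and 48.7% below 0.

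A C/EBP palindrome (TTNCGNAA, on either strand) matched only in the third listed window of ATF5 among the 10 genes. The cAMP response element core TGACGTNA, the heat shock element (HSE, its repeats alternating in direction) and the endoplasmic reticulum stress element (ERSE; CCAAT and CCACG 9 bases apart, so that each ERSE holds a CCAAT box) matched in 0 of the 19 windows, on either strand. They were found in 3.01%, 0.49% and 0.0769% of all windows, and the C/EBP palindrome in 2.57%.

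The authors' deposited table gives each gene a mean RPKM, that of whichever treatment had the higher mean, the log2 ratio of OSSL_325096 to DMSO as a log2 fold change, and an unadjusted p-value. RPKM is a read count divided by transcript length and library size. Negative log2 fold changes mean lower RNA with the compound, read from the table's title, which puts the compound before DMSO. In bulk RNA, fewer cells that express a gene and less RNA per cell cannot be told apart. An implied standard error (SE) was worked back from each log2 fold change and its p-value as if the p-value came from a two-sided normal test, and it is only as good as that assumption. Background values are over the 11324 genes that reached 1 RPKM in a group mean, and all 10 genes were well above this minimum. Listed genes that reached it are called measured.

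All 10 regulators had negative log2 fold changes, against 49% of the background genes. Their median was -0.52 (quartiles -0.68 and -0.18), against 0.01 over all background genes. CHAC1, ATF3, DDIT4 and DDIT3 were at least 1.5-fold lower in the authors' deposited table, 4 of 10, where 4.95% of the background genes were. None of the 10 was as much as 2-fold lower, a size reached by 1.09% of the background genes. DDIT3, at 1.505-fold, lay just inside the 1.5-fold limit, and TRIB3, at 1.48-fold, just outside it. The 10 genes were chosen with earlier results of these data known and belong to the same stress response. The counts beside background shares are therefore descriptions, and the 10 genes are not independent observations.

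No single regulator passed a test. The unadjusted p-values in the authors' deposited table ran from 0.439 for CHAC1 to 0.990 for CEBPB, and the deposited false discovery rate of every one of them was 0.999995. An unadjusted p under 0.05 was found for 0 of the 10 and for 0.0442% of the background genes. The Benjamini-Hochberg adjusted p-value, recomputed over the background genes from the deposited Workbench p-values, was under 0.05 for 0 of the 11324 genes. The implied SE of the 10 ran from 0.97 to 1.30 on the log2 scale, so that fold differences of 3.72 (TRIB3) to 5.86 (ATF3) would have been needed for an unadjusted p of 0.05. Every 95% interval built from the implied SE covered both no difference and a 1.5-fold higher level. The gap between the lowest and the highest of the 10 log2 fold changes, 0.80, was smaller than the smallest implied SE, so no neighbours in their order differed beyond their error.

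**Figure D1:**
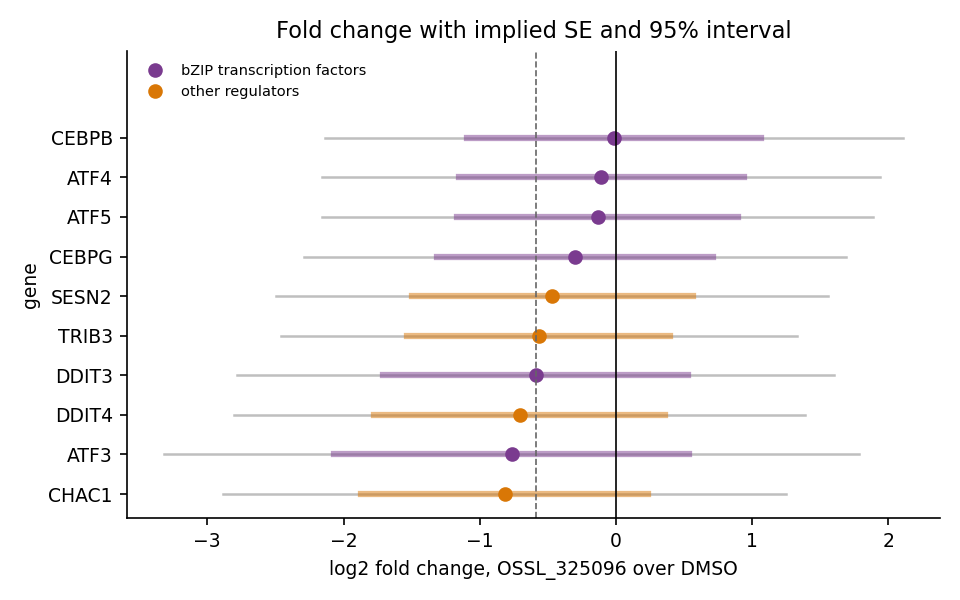
The 10 regulators (vertical axis) with their log2 fold changes, compound over DMSO (horizontal axis), in purple for bZIP transcription factors and orange for the others; thick bars are 1 implied SE, thin grey lines the 95% interval, and the dashed line marks 1.5-fold lower. Every point lies at or below 0, from CHAC1 at -0.82 to CEBPB at -0.01, and every interval crosses 0.

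ATF4 itself differed little. Its gene (ENSG00000128272) lies on chromosome 22, 39915700 to 39918691, plus strand, on hg19. ATF4 mRNA was abundant, with a mean of 315 RPKM in the higher group, rank 108 of the background genes. Its deposited log2 fold change, in the authors' deposited table, was -0.11 (implied SE 1.05), and 35.7% of the background genes had a lower one. Because ATF4 is controlled largely through translation of its mRNA, this level does not measure ATF4 protein.

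ATF5, a close relative of ATF4 that is also controlled through translation and is known for the mitochondrial stress response, was next to it in both level and fold change. The authors' deposited table put its log2 fold change at -0.13 (implied SE 1.03), and its mean was 279 RPKM in the higher group. The gene (chromosome 19, 50431959 to 50437192, plus strand) is overlapped by 3 genes on the minus strand. CTC-326K19.6, listed at 0.0651 RPKM, spans all of its 5234 bases. NUP62, a nuclear pore gene, overlaps its 5′ part by 1062 bases, and IL4I1, an amino acid oxidase gene, by 838 bases. NUP62 was at 0.07 on the log2 scale with 29.2 RPKM and IL4I1 at -0.69 with 25.9 RPKM in the authors' deposited table. Whether the counting used strand is not known, so reads in the shared bases cannot be assigned to ATF5 with certainty.

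The partners of ATF4 of the C/EBP family also had small deposited fold changes, with errors far larger than these. CEBPB, an intronless gene (1 exon, chromosome 20, 48807376 to 48809212, plus strand) whose protein acts in inflammation and stress, stood at 187 RPKM with a fold change of -0.01 on the log2 scale (implied SE 1.08) in the authors' deposited table. CEBPG, a short C/EBP protein that is a main dimer partner of ATF4 (chromosome 19, 33864236 to 33873592, plus strand), was at 19.1 RPKM with -0.30 (implied SE 1.02). On the RPKM scale CEBPB was thus the more abundant of the pair, while the deposited fold change was larger in CEBPG. Other C/EBP genes lay at low levels, CEBPA at 6.001 RPKM (log2 fold change 0.31, implied SE 1.80) and CEBPD at 1.29 RPKM (0.45, implied SE 1.98) in the authors' deposited table. CEBPE stayed under 1 RPKM.

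The remaining bZIP genes of the 10, DDIT3 and ATF3, had larger fold changes than the other bZIP genes, though not beyond their errors. DDIT3 encodes CHOP, which promotes death under lasting stress (chromosome 12, 57910371 to 57914300, minus strand). At 56.5 RPKM, it was listed at -0.59 on the log2 scale (implied SE 1.12) in the authors' deposited table, 1.505-fold lower. Dividing the deposited mean by the deposited fold gives 37.5 RPKM for the lower group, which holds only if the fold is a ratio of the group means. DDIT3 shares 982 bases with the methionyl-tRNA synthetase gene MARS on the plus strand, which was at -0.14 on the log2 scale with 97.4 RPKM. ATF3, an early stress factor that can repress transcription (chromosome 1, 212738676 to 212794119, plus strand), was the least abundant of the 10 at 14.6 RPKM and had a log2 fold change of -0.77. Its implied SE of 1.30 was the widest of the 10. Only 2.37% of the background genes had a lower fold change than ATF3 in the authors' deposited table.

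CHAC1 and TRIB3 are among the best known targets of ATF4 and CHOP. CHAC1, a cytosolic enzyme that breaks down glutathione (chromosome 15, 41245160 to 41248710, plus strand), had the lowest log2 fold change of the 10, -0.82 (implied SE 1.05), at 46.0 RPKM in the authors' deposited table. It was 1.76-fold lower, rank 228 from the lowest among the background genes, and the same division gives 26.2 RPKM in the lower group. TRIB3, a pseudokinase that binds AKT and restrains ATF4 and CHOP (chromosome 20, 361261 to 378203, plus strand), was at 114 RPKM with -0.57 on the log2 scale (implied SE 0.97). Its 95% interval in fold terms ran from 0.182 to 2.51. Thus CHAC1 and TRIB3 differed from each other by far less than either error.

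DDIT4 and SESN2 restrain the growth kinase complex mTORC1 when nutrients or oxygen are short. DDIT4, which encodes REDD1 and acts through the TSC complex (chromosome 10, 74033678 to 74035794, plus strand), was the most abundant of the 10 at 341 RPKM. Its log2 fold change was -0.71 (implied SE 1.07) in the authors' deposited table, 1.63-fold lower, which by the same division is 209 RPKM in the lower group. SESN2, a leucine sensor that binds the GATOR2 complex (chromosome 1, 28586038 to 28609002, plus strand), had 95.03 RPKM and a log2 fold change of -0.47 (implied SE 1.03). DDIT4 stood in the lowest 3.06% of the background genes by fold change and SESN2 in the lowest 7.94%. The 4 genes that are not bZIP factors (CHAC1, TRIB3, DDIT4 and SESN2) had a median of -0.64 and the 6 bZIP genes one of -0.22, with 2 genes at least 1.5-fold lower in each class. That difference between the classes was not tested.

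**Figure D2:**
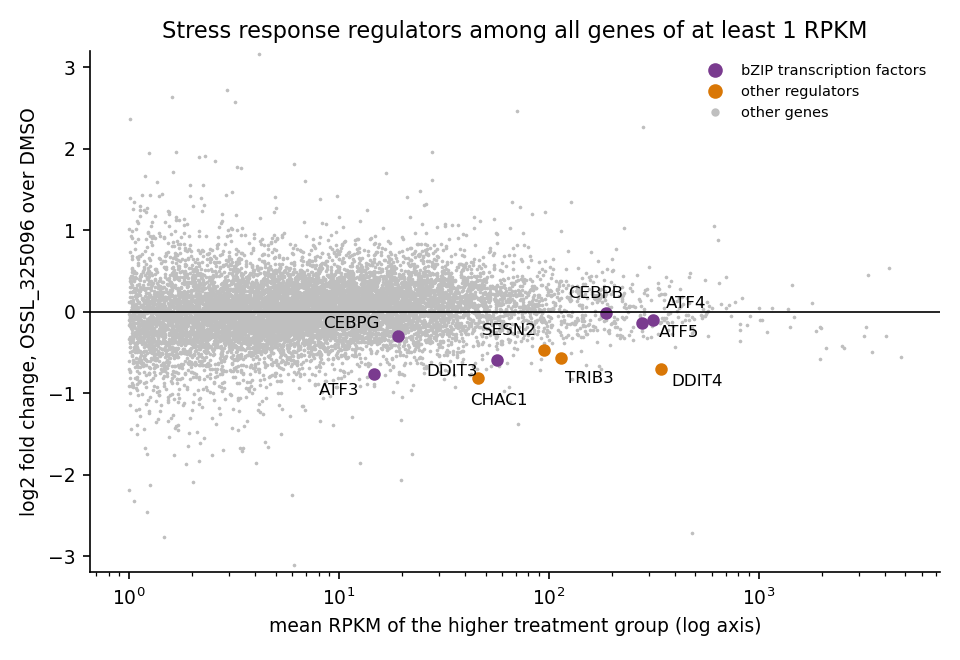
Log2 fold change, compound over DMSO (vertical axis), against the mean RPKM of the higher treatment group (horizontal, log axis) for genes of at least 1 RPKM, with the 10 regulators labelled; 7 genes lie beyond the vertical axis. DDIT4, at 341 RPKM and -0.71, lies lower than ATF4, ATF5 and CEBPB, which are near the line at 0.

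Close relatives of the non-bZIP regulators did not all share their sign. In the authors' deposited table SESN1, a sestrin best known as a p53 target, stood at -0.77 (log2, implied SE 1.34) with 3.49 RPKM. TRIB1 had -0.47 (implied SE 0.84) at 29.4 RPKM. CHAC2, which is the more constitutive of the CHAC enzymes, had 0.43 (implied SE 1.48) at 8.42 RPKM, the opposite sign to CHAC1. The relatives SESN3, TRIB2 and DDIT4L did not reach 1 RPKM. CEBPZ, which shares a name but not the bZIP domain with the C/EBP factors, had 0.18 (implied SE 0.91).

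Upstream of ATF4, the genes of the sensing machinery had medians near that of the background, 0.01. Of 9 eIF2 alpha kinases and their regulators, activators and inhibitors alike, 7 were below 0, against 49% of the background genes. Their median was -0.10. Of these 9 genes 0 were at least 1.5-fold lower or higher, where 4.95% of the background genes were in each direction. These shares also stand beside the other counts of this paragraph. On the log2 scale of the authors' deposited table EIF2AK3, which encodes the endoplasmic reticulum kinase PERK, was at -0.32, EIF2AK4, the amino acid sensor GCN2, -0.28, and OMA1, a mitochondrial protease that signals to the kinase HRI, -0.32. IMPACT, an inhibitor of GCN2 activation, had -0.26. The next list held genes of eIF2, its exchange factor eIF2B and its phosphatase, and EIF2A, a separate initiation factor gene. Its 14 genes had a median of -0.05, with 1 at least 1.5-fold lower. That gene was PPP1CB, a phosphatase catalytic subunit, at -0.71 (implied SE 0.89), while the exchange factor gene EIF2B3 had 0.56 and EIF2S3 -0.42. PPP1R15A, which encodes GADD34, the stress-induced subunit that targets the phosphatase to eIF2 alpha, had -0.39 in the authors' deposited table. These genes report RNA only, and phosphorylation of eIF2 alpha was not measured. Genes that control the stability or activity of ATF4 protein had a median of -0.06 over 11 measured members, and 0 of them were 1.5-fold from 1. They ran from RPS6KA3 at -0.29 and SIRT1 at -0.24 to DAPK3 at 0.34 and NEK6 at 0.35.

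Downstream, genes known to be induced by ATF4 mostly had negative fold changes. Of 19 measured metabolic and transport genes 18 were below 0 and 7 at least 1.5-fold lower, with a median of -0.34. Among the background genes 49% were below 0 and 4.95% at least 1.5-fold lower, shares that also stand beside the counts of the next lists. These lists, too, were chosen with earlier results of these data known, and the counts are descriptions. CTH, which makes cysteine, was at -2.07 on the log2 scale (implied SE 1.10) in the authors' deposited table. That was the largest fold change among the measured genes of all these lists. FGF21, of the signalling list, was at -5.66 (implied SE 3.26) but reached only 0.412 RPKM. The asparagine synthetase gene ASNS had -0.97, the glutamine transporter gene SLC38A2 -0.93 and the cystine transporter gene SLC7A11 -0.78. All 14 tRNA synthetase and translation genes were below 0, 2 of them at least 1.5-fold lower, with a median of -0.31. Glycyl-tRNA and tryptophanyl-tRNA synthetase genes GARS and WARS led them at -0.83 and -0.76 in the authors' deposited table, followed by TARS at -0.48 and NARS at -0.45. Signalling genes induced by ATF4 or CHOP had a median of -0.32 over 13 measured members, 9 of them below 0 and 2 at least 1.5-fold lower. GDF15, a secreted stress hormone, had -1.22 (implied SE 1.84) and KLHL24 -0.60, whereas the autophagy receptor gene SQSTM1 had 0.44 and JDP2, a bZIP repressor, 0.57. Of all genes in these 3 lists, 0 had an unadjusted p under 0.05 in the authors' deposited table.

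The CARE core was set beside these downstream lists. It was present in windows of 5 of the 13 metabolic and transport genes that had a window (ASNS, SLC1A4, SLC1A5, SLC3A2 and SLC7A1) and in 7 of 11 tRNA synthetase and translation genes, against 2.52% of the background genes with a window. In the signalling list it was present in 1 of 11, JDP2, whose log2 fold change was positive. Over all background genes that had a window, the 221 with a CARE core had a median log2 fold change of -0.09, with 62% below 0. The 8557 without it had a median of 0.01, with 48.5% below 0. With the dependence on GC content, transcript length and expression regressed out, these medians were -0.05 and 0.01. These are descriptions of letters near a start, and genes with the core share other features. The 221 include the regulators and listed genes that have the core, so their values are not independent of those lists. The lists hold genes known to be induced by ATF4, so their shares with the core are no independent evidence of its action.

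Other bZIP genes, listed as partners or relatives of the regulators, were spread around 0. Of 30 measured members 17 were below 0, with 2 at least 1.5-fold lower and 3 at least 1.5-fold higher (4.95% of the background genes were that much higher), and a median of -0.05. The higher genes were FOSL1 (1.44, implied SE 2.13, 1.44 RPKM), BATF (1.08, implied SE 1.68, 8.65 RPKM) and MAFK (0.66, implied SE 0.93, 20.7 RPKM) in the authors' deposited table. BACH2, a repressor of plasma cell differentiation, was the lowest at -0.69.

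RNA of the complex that DDIT4 and SESN2 restrain, and of its inputs, had a median near that of the background. The list holds inhibitors as well as activators, and activity of mTORC1 was not measured. Genes of mTORC1 and its amino acid and TSC inputs had a median of 0.06 over 28 genes, 11 of them below 0 and 2 at least 1.5-fold lower, near the 4.95% of the background genes. FNIP1 and ULK1 were at -0.65 and -0.64, and DEPTOR, an mTOR inhibitor that is abundant in many myelomas, had -0.53 at 67.3 RPKM in the authors' deposited table. TBC1D7, a TSC complex subunit, had -0.49. The other arms of the unfolded protein response, run by IRE1 and ATF6, had a median of -0.02 over 20 genes, with 4 at least 1.5-fold lower and 3 at least 1.5-fold higher, where 4.95% of the background genes were in each direction. Among them MANF and SDF2L1, lumenal folding factors, had 1.03 and 0.98, and EDEM1 and SEL1L, which serve degradation, had -0.87 and -0.77.

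**Figure D3:**
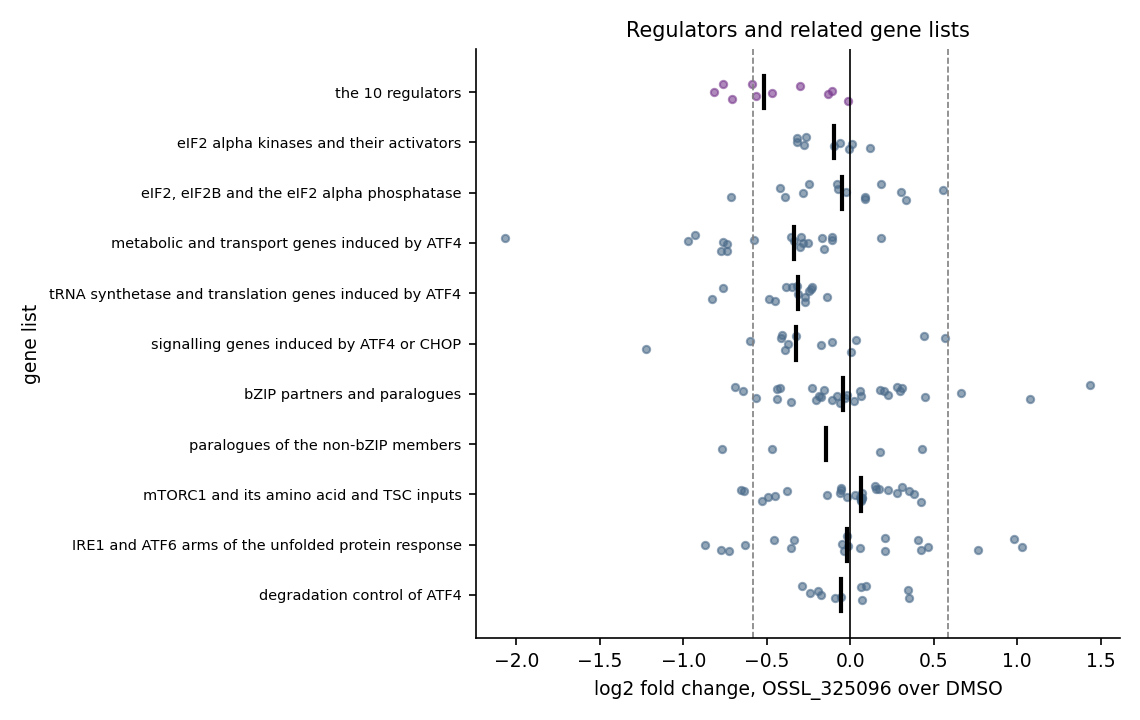
Log2 fold change, compound over DMSO (horizontal axis), for each measured gene (points, moved up or down at random for visibility) of the 10 regulators and related gene lists (vertical axis); black bars are medians and dashed lines mark 1.5-fold. The regulators have a median of -0.52 and the ATF4-induced lists medians of -0.34, -0.31 and -0.32, while the sensing, bZIP partner and mTORC1 lists sit near 0.

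Fold changes in this table moved with the GC content of transcripts. Across 11104 genes, which are not independent replicates, the Spearman correlation was 0.47, and when the genes were divided into 5 equal classes by GC content the richest class had a median log2 fold change of 0.23. Of the 10 regulators 6 were in that class: CEBPB, DDIT4, ATF5, TRIB3, CHAC1 and SESN2. Their deposited values thus lay below those of genes of like GC content by more than below all genes. After the dependence on GC content, transcript length and expression had been regressed out, 9 of the 10 values were lower, and CEBPG, with the lowest GC content at 41.3%, was nearer 0 at -0.20. The median of the 10 moved from -0.52 to -0.67. TRIB3 moved to -0.81 and SESN2 to -0.70, so that 6 of the 10 were at least 1.5-fold lower, against 3.96% of the background genes. CHAC1 stood at -1.05 and DDIT4 at -0.92, while ATF4 was at -0.17, ATF5 at -0.34 and CEBPB at -0.28.

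**Figure D4:**
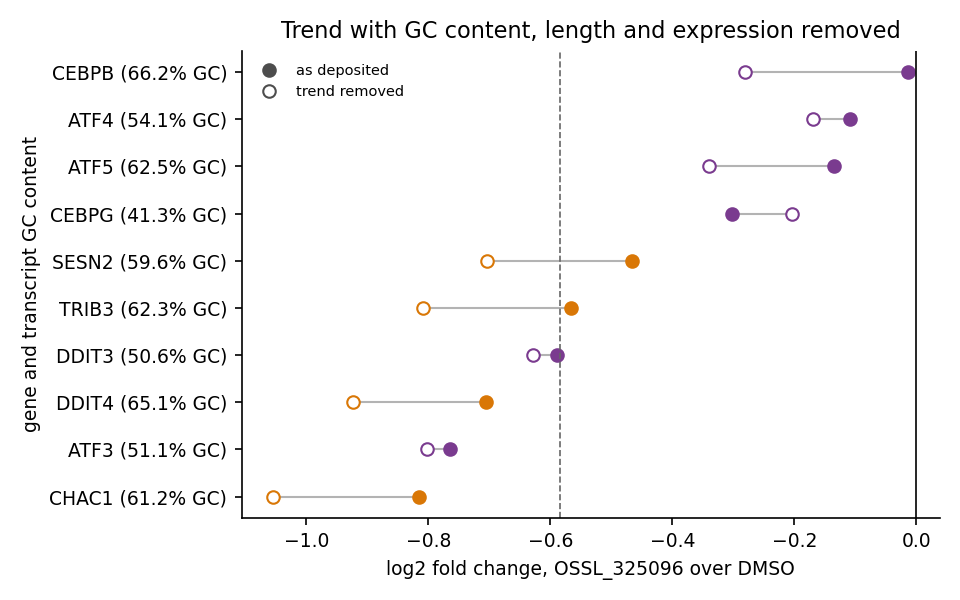
Log2 fold change, compound over DMSO (horizontal axis), of the 10 regulators as deposited (filled) and with the trend in GC content, transcript length and expression removed (open), with the transcripts' GC content beside each name; the dashed line marks 1.5-fold lower. SESN2 and TRIB3 cross the dashed line, to -0.70 and -0.81, and CEBPG is the one gene that moves toward 0.

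The identity of the cells was checked on markers. All 9 plasma cell markers were measured, from SLAMF7 at 6.26 to MZB1 at 189 RPKM. Of 9 markers of B, T and myeloid cells 2 reached 1 RPKM, CD4 at 6.60 and CD8A at 1.02 RPKM. Among the plasma cell genes CD38, IRF4 and TNFRSF17 had log2 fold changes of -0.73, -0.67 and -0.66 and SDC1 one of 0.60 in the authors' deposited table, and their part in the values of the regulators was not tested. Of the 4 genes tied to the lines' chromosomal translocations, FGFR3, MAF and CCND1 had implied SEs of 2.002, 1.94 and 1.83, and WHSC1 one of 1.04. The implied SEs of the 10 regulators had a median of 1.05, near the 1.10 of all background genes.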

How the data were processed

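RNA of 2 myeloma lines, each exposed to OSSL_325096 or DMSO, was sequenced in 4 libraries, and treatments were taken from the labels. Per the series' design text, reads were mapped to hg19 and expression and the comparison were computed in Biomedical Genomics Workbench 5. The annotation, counting rule, strand setting and statistical model are not stated in the labels or headers. Per the file headers, the authors deposited a group mean in RPKM, a log2 fold change, the same fold as a signed score, and p-values (unadjusted, false discovery rate and Bonferroni), with 0 columns of single libraries. The planned limma fit, block by line and omission of libraries therefore could not be made, and the authors' values took their place. The replicates of a treatment were different lines, so the spread behind the p-values includes differences between the lines, and nothing says how many cultures each library came from.

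Of 57773 genes 23130 had a fold change and 11324 had at least 1 RPKM. The trend with GC content, transcript length (median of each gene's GENCODE 44 transcripts on GRCh37) and expression was a regression with terms up to degree 3, available for 98.1% of these genes and explaining 15.8% of the variance. The regression was run on simulated data with 200 shifted genes and a known trend. That trend was built from terms the regression contains. The run therefore checks the calculation only, and cannot show that the regression suits these data. The 10 genes and the 13 other lists (0 unmatched names) were chosen with earlier results of these data known. The text names the 10 genes, up to 4 genes of at least 1 RPKM with the largest absolute fold change in each list, and the relatives of the 10. CEBPA, CEBPD and CEBPE, the overlapping genes CTC-326K19.6, NUP62, IL4I1 and MARS, genes with a CARE core, SLAMF7 and MZB1 were named in addition, after their values were seen. The same holds for EIF2A and FGF21. With 1 fold change per gene, no gene could be named for a like pattern over samples. Promoter windows are from RefSeq (GRCh38.p14) and gene positions are those of the table (hg19). Alternatives were another fold, other RPKM minimums, centring and trend removal. Python 3.11.15, pandas 2.3.3, numpy 2.4.6, scipy 1.17.1 and matplotlib 3.10.9 were used.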

Additional observations from a re-analysis of the deposited data

How the results depend on the processing

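The 4 genes at least 1.5-fold lower became 0 with a 2-fold limit. They were 4 with no RPKM minimum, with a minimum of 5 RPKM and with centring on the median of all genes. The RPKM settings could not change this count, as the least abundant of the 10, ATF3, stood at 14.6 RPKM. The count was 6 once the dependence on GC content, transcript length and expression was taken out. The share of background genes at least 1.5-fold lower depended on the minimum, at 18% with none and 2.7% at 5 RPKM. The median of the 10 was -0.53 after centring, which shifted values by 0.01, and -0.67 after trend removal. All 20 values of single regulators recomputed by centring or trend removal kept their sign, and the largest move was 0.27 (CEBPB). Centring lowered values that were already negative and could not change a sign, so only trend removal could have done so. The depth of the libraries is unknown. No paired analysis was possible because the deposited table holds no values of single libraries, and for the same reason leaving out a library was not run.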
